A study of Mus musculus with 4 samples.

Results

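The genes described here encode the cytosolic heat shock proteins HSP70, HSP110 and HSP90 and the DNAJ proteins that work with HSP70, in cultured mouse embryonic fibroblasts, the collagen-making cells of connective tissue. The list holds 10 genes, Hspa1a, Hspa8, Hspa2, Hspa4l, Hsph1, Hspa4, Dnajb1, Dnaja1, Hsp90aa1 and Hsp90ab1, chosen by name and function and matched by symbol to probe sets annotated to a single gene. Of the 10, 9 had such a probe set, out of 19938 genes that did. Hsp90ab1 was not analysed here. For Dnaja1, with 2 such probe sets, and for Hspa8 and Hsp90aa1, with 3 each, the probe set with the highest mean signal over the arrays was taken. Whether each of these probe sets lies at the gene itself was not checked. The sets of Dnaja1 and those of Hspa8 disagreed in sign on the genotype difference in hypertonic medium, as given below.

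The 4 groups were cells labelled NFAT5/TonEBP knockout in hypertonic medium, the same cells in isotonic medium, wild-type cells in hypertonic medium and wild-type cells in isotonic medium. All were unsynchronised cultures kept in their medium for 20 hours, and added NaCl brought the hypertonic medium to 450 mosmol/kg. Each group was a single Affymetrix Mouse Gene 1.0 ST array on which a pool of 4 samples was hybridised, so the groups have no replicates and no difference below carries a p-value or an error between cultures. Which part of Nfat5 was deleted, how the cells were derived and the osmolality of the isotonic medium are not stated in the sources used here. With 1 pool per genotype and medium, an effect of the genotype and any other difference between the cell isolates cannot be told apart.

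HSP70 proteins bind unfolded stretches of other proteins and release them again in a cycle driven by ATP. DNAJ proteins deliver clients to HSP70 and speed up ATP hydrolysis, HSP110 proteins are relatives of HSP70 that exchange its nucleotide and so reset the cycle, and HSP90 takes over clients such as kinases and steroid receptors at a late stage of folding. Many of these genes are switched on by the heat shock factor HSF1, which binds heat shock elements, inverted repeats of the letters GAA. NFAT5, also called TonEBP, binds a different element, TonE, and switches on genes that protect cells against high salt. Salt draws water out of cells and crowds their proteins, and some chaperones are known to be induced by it.

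All 9 genes lay above the dim limit on all 4 arrays. That limit is each array's median signal over its one-gene probe sets, between 5.38 and 5.44 on the log2 scale, and a gene counts as measured in a comparison where it passes the limit on at least 1 of its arrays. The Nfat5 probe set read 8.24 in knockout-labelled hypertonic cells and 8.03 in knockout-labelled isotonic cells, against 8.19 in wild-type hypertonic and 7.74 in wild-type isotonic cells, so it was not lower in the knockout-labelled cells. A probe set outside the deleted part would not check the label, so the genotype is taken from the labels alone. Of the 5 tonicity genes above the limit on all 4 arrays, 0 were at least 2-fold higher in hypertonic medium in knockout-labelled cells, where 3.46% of 10277 measured genes differed 2-fold either way, and 3 were in wild-type cells, where 1.42% of 10134 did. Fibroblast marker genes were detected on every array for 8 of 10, and the listed endothelial and germ cell markers were below the dim limit on all arrays. Of the other lists, 4 of 5 epithelial, 3 of 4 neural, 1 of 5 macrophage and 1 of 4 skeletal muscle markers were above it on at least 1 array.

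Promoters of 4 genes are printed. Hspa1a and Dnaja1 are shown because they hold a pair of heat shock element units. Hspa4 and Dnajb1 are shown because they hold none and, unlike Hspa1a, read lower in wild-type cells in hypertonic medium. Dnaja1, by its brightest probe set, also read lower there, with a difference of -0.03. Hspa4l held no pair and had a difference of 0.73, and Hsph1 held a pair and had 0.36. A link between motif and response was not tested. Each run is the 250 bases before the annotated start, 5′ to 3′ on the strand of the gene, from RefSeq with build GRCm38.p6. The Hspa1a run is chr17:34972157-34972406 on the minus strand, the Dnaja1 run chr4:40722218-40722467 on the plus strand, the Hspa4 run chr11:53300480-53300729 on the minus strand and the Dnajb1 run chr8:83607925-83608174 on the plus strand. Capitals mark the pair of units, GAANNTTC or TTCNNGAA, where N is any base; each form reads the same on both strands.
Hspa1a: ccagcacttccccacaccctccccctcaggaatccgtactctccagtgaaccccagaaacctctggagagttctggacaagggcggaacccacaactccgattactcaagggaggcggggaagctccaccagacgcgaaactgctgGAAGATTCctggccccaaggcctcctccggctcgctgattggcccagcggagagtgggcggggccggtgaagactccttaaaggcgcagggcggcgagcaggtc
Dnaja1: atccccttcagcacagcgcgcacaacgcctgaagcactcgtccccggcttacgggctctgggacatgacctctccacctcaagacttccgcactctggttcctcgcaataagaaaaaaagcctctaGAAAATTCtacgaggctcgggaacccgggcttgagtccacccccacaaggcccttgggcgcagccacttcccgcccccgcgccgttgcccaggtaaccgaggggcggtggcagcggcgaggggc
Hspa4: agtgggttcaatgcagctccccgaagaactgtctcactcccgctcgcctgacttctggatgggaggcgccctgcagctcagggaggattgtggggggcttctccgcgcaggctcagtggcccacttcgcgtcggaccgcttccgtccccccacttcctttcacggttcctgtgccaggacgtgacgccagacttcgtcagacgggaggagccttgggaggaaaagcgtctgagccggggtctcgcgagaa
Dnajb1: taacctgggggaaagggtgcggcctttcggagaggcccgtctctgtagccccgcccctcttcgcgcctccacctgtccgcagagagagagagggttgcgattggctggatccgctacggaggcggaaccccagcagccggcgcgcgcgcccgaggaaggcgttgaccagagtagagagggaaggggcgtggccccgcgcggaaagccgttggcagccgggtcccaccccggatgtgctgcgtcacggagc

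The search took in these 250 bases and the 50 after the start, over 11 windows of 7 of the 10 genes, Hspa1a, Hspa2, Hspa4l, Hsph1, Hspa4, Dnajb1 and Dnaja1. For Hspa4l, Hspa2 and Hsph1 the bases before the listed start overlap the gene's RefSeq span, and they are described without being printed. A pair of heat shock element units was found in 3 of the 7 genes, against 4587 of all 27025 genes with a promoter sequence. By window, 15.1% of all 32851 windows of this length held one. Dnaja1 held its pair in the first of its 3 windows only. The pair in Hspa1a, GAAGATTC, runs from base -104 to base -97 counted from the start, and that in Dnaja1, GAAAATTC, from -124 to -117. The first window of Hsph1 held TTCTCGAA from -33 to -26, and after the start TTCTGGAA from 37 to 44 and GAAAGTTC from 42 to 49, which overlap.

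The TonE consensus, searched on both strands, was found in Hspa2 from -20 to -10 and in Hsph1 from 40 to 50, where it overlaps the pairs after the start. It was present in 5.74% of all genes and 4.96% of all windows. The letters CCAAT, on either strand, were found in 5 of the 7 genes, against 41.1% of all genes and 37.4% of windows, and in Dnaja1 they were in windows other than the first. The windows of Hspa4l and Hspa4 held none of these motifs. A match is a description of letters and not a binding site, and elements farther away were not searched.

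**Figure D1:**
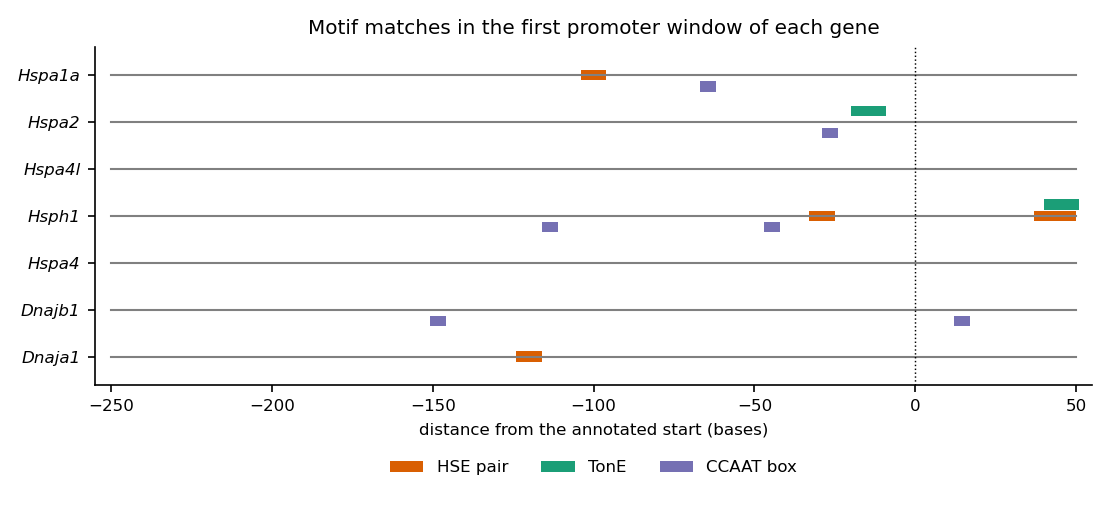
Position of motif matches in the first promoter window of 7 chaperone genes; the x axis is the distance in bases from the annotated start, grey lines are the windows, and bars are pairs of heat shock element units (HSE pair), TonE and CCAAT matches. Heat shock element pairs appear in Hspa1a, Hsph1 and Dnaja1, and the Hspa4l and Hspa4 windows hold no match.

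Read by the brightest probe set of each gene, the wild-type hypertonic array was the highest of the 4 for Hspa4l, Hspa1a, Hsph1 and Hspa2. It was the lowest for Hspa8, Hspa4, Dnajb1, Dnaja1 and Hsp90aa1. The 4 genes highest there were all lowest on the knockout-labelled hypertonic array. With the mean of the probe sets of a gene, Hspa8 and Dnaja1 no longer had the wild-type hypertonic array at an end. This grouping was made after the values were seen, and the share of all measured genes with such an order was not counted. For genes read by 2 probe sets, the response of knockout-labelled cells varied with an SD of 0.22 per probe set (577 genes) and that of wild-type cells with an SD of 0.18 (576 genes). This SD describes how far 2 probe sets of a gene disagree on the same arrays, and not the spread between cultures. The same SD was 0.26 for the genotype difference in hypertonic medium, 0.21 for it in isotonic medium and 0.28 for the difference of the responses.

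**Figure D2:**
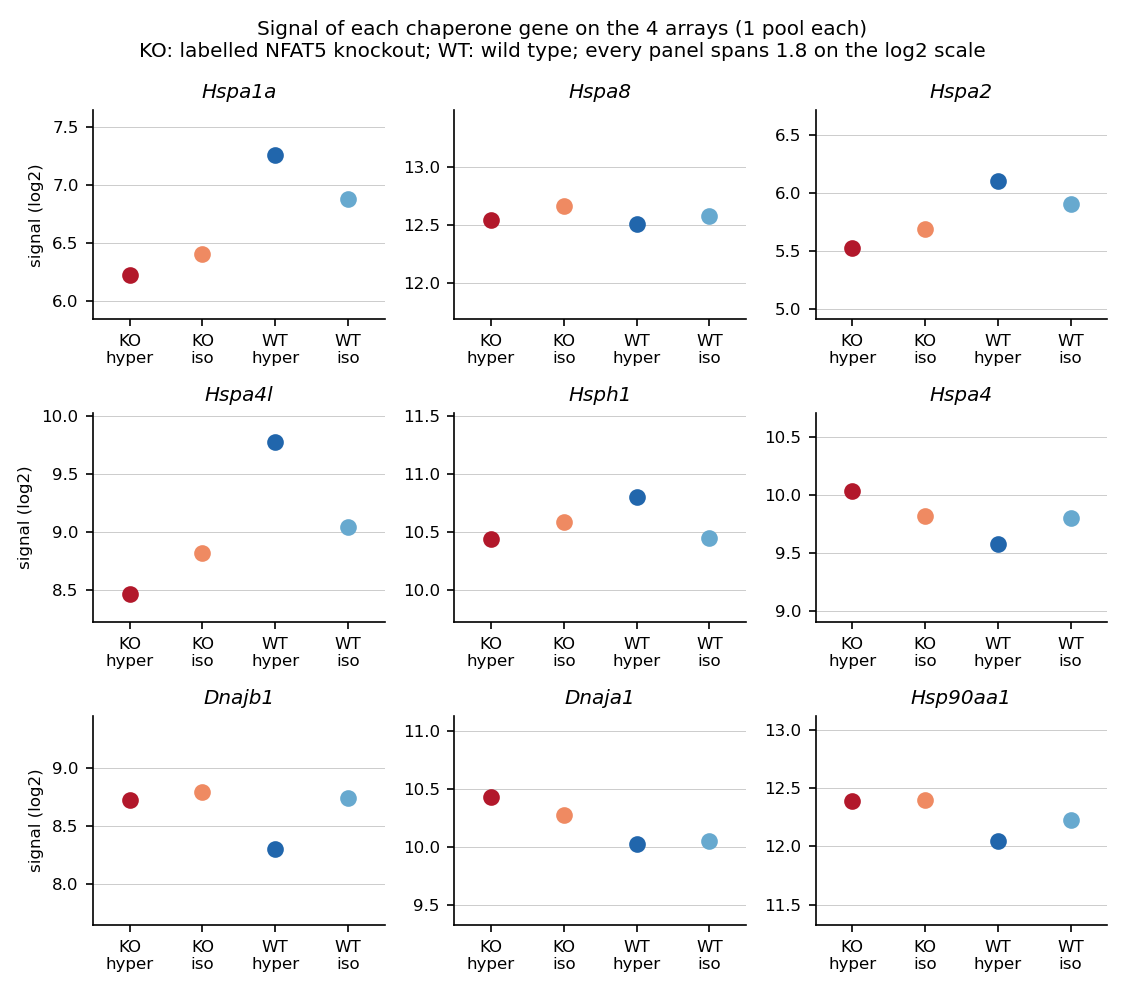
Log2 signal (y axis) of 9 chaperone genes on the 4 arrays (x axis), with KO for cells labelled NFAT5 knockout and WT for wild type; each point is 1 pool and there are no error bars because there are no replicates. Hspa1a, Hspa2, Hspa4l and Hsph1 are highest on the wild-type hypertonic array, and the other 5 genes, each by its brightest probe set, are lowest there.

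Among the HSP110 relatives, Hspa4l differed most. Hspa4l, also known as Osp94, read 8.47 in knockout-labelled hypertonic and 8.82 in knockout-labelled isotonic cells, against 9.78 in wild-type hypertonic and 9.05 in wild-type isotonic cells. Its signal was highest in wild-type hypertonic cells and lowest in knockout-labelled hypertonic cells, with both isotonic arrays between them. In knockout-labelled cells the hypertonic signal was lower than the isotonic, with a difference of -0.35 and a ratio of 0.786, and 37.5% of 10277 measured genes were at least as far from 0. In wild-type cells it was higher by 0.73, a ratio of 1.66, which ranked 249 from the top among 10134 measured genes.

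Between genotypes, Hspa4l differed by -1.31 in hypertonic medium (knockout-labelled minus wild type, a ratio of 0.404) and by -0.23 in isotonic medium. The hypertonic difference ranked 362 from the bottom of 10374 measured genes. The responses differed by -1.08 (knockout-labelled minus wild type), and 5.61% of 10542 measured genes differed at least as far in either direction. Each of these values lay beyond the SD between probe sets. Hspa4l has 1 probe set, so no second reading of it was available.

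Hsph1 encodes HSP105, an HSP110 protein that exchanges the nucleotide of HSP70. It read 10.44 in knockout-labelled hypertonic and 10.59 in knockout-labelled isotonic cells, against 10.81 in wild-type hypertonic and 10.45 in wild-type isotonic cells. The wild-type hypertonic array was again the highest, and the other 3 lay within 0.15 of each other. The response was -0.15 in knockout-labelled cells, within the SD between probe sets, and 0.36 in wild-type cells. The genotype difference was -0.36 in hypertonic and 0.14 in isotonic medium, and the isotonic value lay within the SD between probe sets.

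Hspa4, known as APG-2 and closely related in sequence to Hspa4l, ran the other way. It read 10.03 in knockout-labelled hypertonic and 9.82 in knockout-labelled isotonic cells, against 9.58 in wild-type hypertonic and 9.81 in wild-type isotonic cells. The isotonic arrays were nearly equal, differing by 0.02. The hypertonic arrays differed by 0.45 (knockout-labelled minus wild type), a ratio of 1.37, with a response of 0.21 in knockout-labelled cells and -0.23 in wild-type cells. Hspa4l and Hspa4 thus had differences of the responses of opposite sign, -1.08 and 0.44, each taken from the same 4 arrays.

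Of the HSP70 genes, Hspa1a encodes the stress-inducible HSP70. Its probe set read 6.22 in knockout-labelled hypertonic and 6.40 in knockout-labelled isotonic cells, against 7.26 in wild-type hypertonic and 6.87 in wild-type isotonic cells. Both knockout-labelled arrays lay below both wild-type arrays. The genotype difference was -1.03 in hypertonic medium, a ratio of 0.489, and -0.47 in isotonic medium, a ratio of 0.720. The response was -0.17 in knockout-labelled cells and 0.38 in wild-type cells. After quantile normalization the hypertonic genotype difference was -0.94, which is short of 2-fold.

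Hspa1a lies beside Hspa1b, a near-identical copy, and a further probe set is annotated to both genes. It was left out of the counts and is credited to neither gene. It read 7.95 in knockout-labelled hypertonic and 8.32 in knockout-labelled isotonic cells, against 10.42 in wild-type hypertonic and 9.38 in wild-type isotonic cells. The order of the 4 arrays was that of the Hspa1a probe set, and the differences were larger in size. In knockout-labelled cells the response was -0.36, and in wild-type cells it was 1.04, a ratio of 2.06. Between genotypes it differed by -2.46 in hypertonic medium, a ratio of 0.181, and by -1.06 in isotonic medium. Transcripts of the 2 copies cannot be told apart on this probe set.

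Hspa8, the constitutive HSP70 of most cells, read 12.54 in knockout-labelled hypertonic and 12.66 in knockout-labelled isotonic cells, against 12.51 in wild-type hypertonic and 12.57 in wild-type isotonic cells. The arrays differed little, and no response or genotype difference on this probe set reached the SD between probe sets. Its 3 probe sets gave differences between -0.26 and -0.12 for the knockout-labelled response and between -0.09 and -0.01 for the wild-type response. They disagreed in sign on the hypertonic genotype difference, which was 0.03, 0.02 and -0.36. The set at -0.36 also gave the knockout-labelled response of -0.26, and both values lay beyond the SD between probe sets. The genotype difference of the brightest probe set, 0.03, therefore does not hold for every reading of the gene.

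Hspa2, an HSP70 best known from developing male germ cells, lay close to the dim limit. It read 5.53 in knockout-labelled hypertonic and 5.69 in knockout-labelled isotonic cells, against 6.10 in wild-type hypertonic and 5.90 in wild-type isotonic cells. The order of the arrays was the same as for Hspa1a, with both knockout-labelled arrays below both wild-type arrays. The genotype difference was -0.57 in hypertonic medium, just inside 1.5-fold, and -0.21 in isotonic medium. The 5 germ cell marker genes were below the dim limit on every array.

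Among the DNAJ genes, Dnajb1 encodes HSP40, the main DNAJ partner of the inducible HSP70. It read 8.72 in knockout-labelled hypertonic and 8.79 in knockout-labelled isotonic cells, against 8.30 in wild-type hypertonic and 8.74 in wild-type isotonic cells. Here the wild-type hypertonic array was low and the other 3 lay within 0.07. The response was -0.07 in knockout-labelled cells and -0.44 in wild-type cells, a ratio of 0.736 that ranked 695 from the bottom of 10134 genes. The hypertonic genotype difference was 0.42 and the isotonic 0.05.

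Dnaja1, a farnesylated DNAJ protein of the cytosol, read 10.43 in knockout-labelled hypertonic and 10.28 in knockout-labelled isotonic cells, against 10.03 in wild-type hypertonic and 10.06 in wild-type isotonic cells. Both knockout-labelled arrays were higher, by 0.41 in hypertonic and 0.22 in isotonic medium. Its other probe set gave -0.21 in hypertonic and -0.08 in isotonic medium, so the sign rests on the choice of probe set. That probe set put the arrays in the order of Hspa1a, highest in wild-type hypertonic and lowest in knockout-labelled hypertonic cells. The mean of both gave 0.10 in hypertonic medium.

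Hsp90aa1 encodes the inducible form of HSP90. It read 12.40 in knockout-labelled hypertonic and 12.40 in knockout-labelled isotonic cells, against 12.05 in wild-type hypertonic and 12.23 in wild-type isotonic cells. The knockout-labelled arrays differed by -0.0017, and both were above the wild-type arrays. The wild-type response was -0.18, and the genotype difference was 0.35 in hypertonic and 0.17 in isotonic medium. Here the 3 probe sets were close to each other, between -0.19 and -0.13 for the wild-type response and between 0.34 and 0.36 for the hypertonic genotype difference.

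Further probe sets are annotated to Dnaja1 or Hspa8 together with small RNA genes, and they were credited to none of them. The set of Dnaja1 and Mir207, a microRNA gene, had a response of 0.69 in knockout-labelled and 0.04 in wild-type cells. The sets of Hspa8, Snord14c and Snord14d, small nucleolar RNA genes, had responses of -0.70 and -0.72 in knockout-labelled cells and -0.08 each in wild-type cells. These differences were larger in knockout-labelled cells than those of the one-gene probe sets of Dnaja1 and Hspa8.

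**Figure D3:**
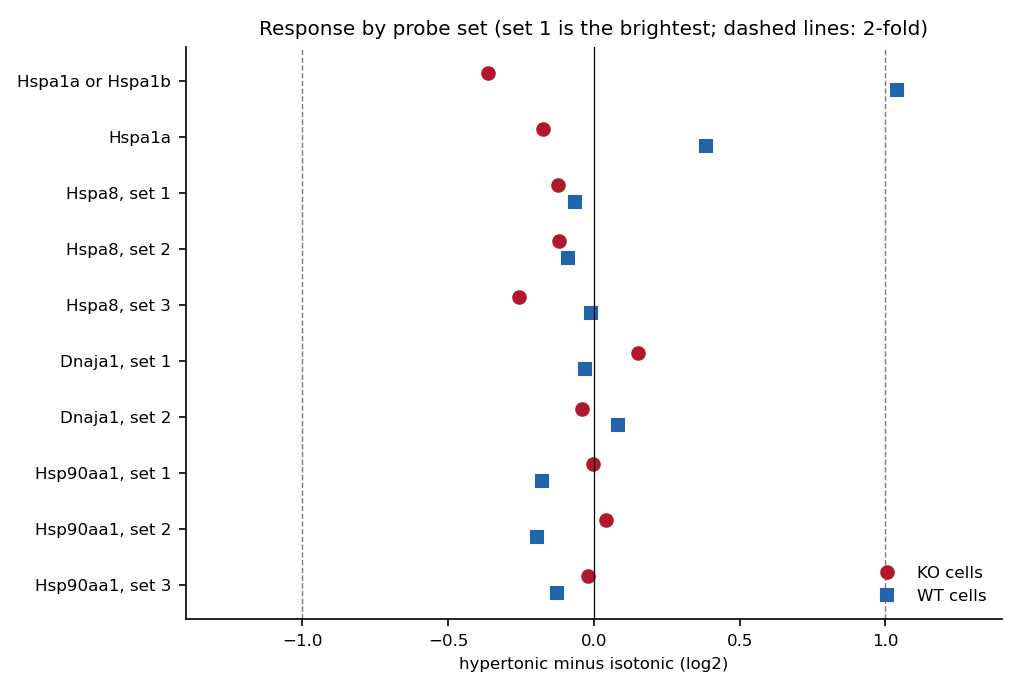
Hypertonic minus isotonic difference (x axis, log2) for each one-gene probe set of Hspa1a, Hspa8, Dnaja1 and Hsp90aa1. The probe set annotated to both Hspa1a and Hspa1b is drawn as well, and the sets shared with small RNA genes are not drawn. Circles are knockout-labelled (KO) cells, squares are wild-type (WT) cells and dashed lines are at 2-fold. The shared Hspa1a and Hspa1b set reaches 1.04 in wild-type cells, and the 3 Hsp90aa1 sets lie close together.

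Counted over the list, a fixed limit of 2-fold, or 1 on the log2 scale, was passed by few of these genes. In the response of knockout-labelled cells 0 of 9 passed 2-fold, against 3.46% of 10277 genes, and 0 passed 1.5-fold, against 16.3%. In the wild-type response 0 of 9 passed, against 1.42% of 10134 measured genes, and at 1.5-fold Hspa4l alone did, against 7.42%. The median of the 9 was -0.12 for knockout-labelled and -0.03 for wild-type cells, next to -0.09 for knockout-labelled and -0.02 for wild-type cells over all measured genes.

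By direction, Hspa1a, Hspa2, Hspa4l and Hsph1 were below 0 in knockout-labelled and above 0 in wild-type cells. The knockout-labelled values of Hspa1a, Hspa2 and Hsph1, at -0.17, -0.16 and -0.15, lay within the SD between probe sets. Hspa4 and Dnaja1 were above 0 in knockout-labelled and below 0 in wild-type cells, and Hspa8, Dnajb1 and Hsp90aa1 were below 0 in both. Together 7 of 9 were below 0 in knockout-labelled cells, against 60.1% of all measured genes, and 5 of 9 in wild-type cells, against 53.9%. The share of all measured genes with each pair of signs was not counted. The sign of Dnajb1 and of Hsp90aa1 in knockout-labelled cells turned positive after quantile normalization, after cyclic loess and with centring on measured genes, and that of Dnaja1 in wild-type cells after cyclic loess and with the mean of its probe sets, all from differences under 0.07 in size. In knockout-labelled cells 1 of the 9 responses, that of Hspa4l, lay beyond the SD between probe sets, and in wild-type cells 6 did. That SD was 0.22 in knockout-labelled and 0.18 in wild-type cells, and the share of all measured genes beyond it was not counted. In wild-type cells Hspa2, at 0.20, was the nearest to 0 of the 6, and 43.6% of measured genes were at least as far from 0. In knockout-labelled cells 57.1% of measured genes were at least as far from 0 as Hspa4, at 0.21, which lay within the SD.

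In hypertonic medium 2 of 9 differed 2-fold between genotypes, Hspa4l and Hspa1a, both lower in knockout-labelled cells, against 9.0% of 10374 genes. The same 2 passed 1.5-fold, against 23.8%, with Hspa2 just short at -0.57 and past it at -0.61 when differences were centred on their median. In isotonic medium 0 of 9 differed 2-fold between genotypes, against 2.87% of 10191 genes, and 0 differed 1.5-fold, against 8.78%. In the difference of the responses Hspa4l alone passed 2-fold, against 6.94% of 10542 genes, and no other gene of the list passed 1.5-fold, against 23.2%. With differences centred on their median Hspa1a, at -0.61, passed 1.5-fold there too. The comparisons in hypertonic medium and in wild-type cells share the wild-type hypertonic array, so their values are not independent readings. The medians of the 9 were 0.03 in hypertonic and 0.05 in isotonic medium, next to -0.01 in hypertonic and 0.03 in isotonic medium over all measured genes.

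**Figure D4:**
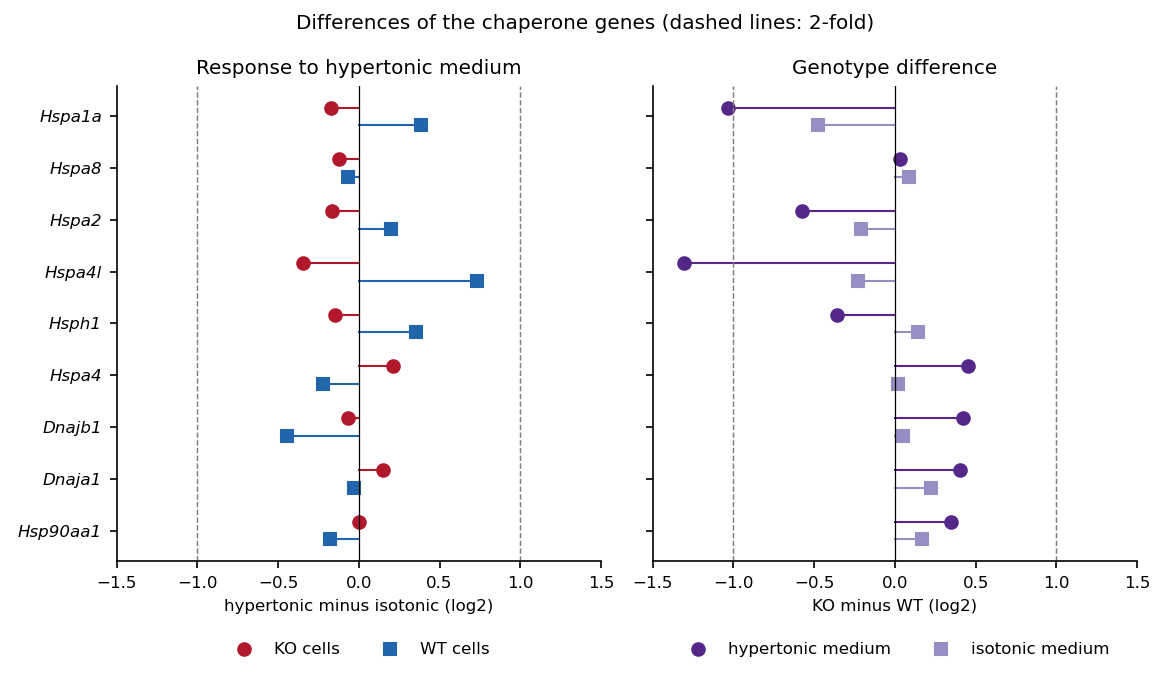
Log2 differences of 9 chaperone genes; the left panel gives hypertonic minus isotonic for knockout-labelled (KO, circles) and wild-type (WT, squares) cells, and the right panel gives KO minus WT in hypertonic (circles) and isotonic (squares) medium, with dashed lines at 2-fold. Hspa4l and Hspa1a pass 2-fold on the negative side of the right panel in hypertonic medium, and no gene passes it in the left panel.

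Other chaperone genes of the cytosol were read from lists chosen by function. The heat shock factor list had 3 genes with a probe set, and Hsf1 was not analysed here. Hsf2, a factor of the same family, was 0.88 higher in knockout-labelled cells in hypertonic medium and 0.81 higher in isotonic medium. The co-chaperones of HSP90, such as the cochaperone p23 and the immunophilins, had medians of -0.19 in knockout-labelled and -0.16 in wild-type cells over 14 genes. Of these, 10 were below 0 in knockout-labelled and 13 in wild-type cells. None of the 14 passed 2-fold in any comparison between arrays. Ppid, the cyclophilin that binds HSP90, had a response of -0.16 in knockout-labelled and -0.57 in wild-type cells, and Aarsd1 had -0.69 in knockout-labelled and -0.10 in wild-type cells.

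The exchange factors and co-chaperones of HSP70 had medians of 0.10 in knockout-labelled and 0.03 in wild-type cells over 8 genes, with none past 2-fold. Bag3, a stress-inducible exchange factor, differed by 0.05 in knockout-labelled and 0.04 in wild-type cells, and was named after its values were seen. Among 11 other DNAJ genes the medians were 0.10 in knockout-labelled and -0.05 in wild-type cells, and 5 were below 0 in knockout-labelled and 9 in wild-type cells. Dnajb4 had responses of -0.61 in knockout-labelled and -0.05 in wild-type cells. Of the other HSP70 relatives 2 were measured between the knockout-labelled arrays and 3 between the wild-type arrays, with Hspa12b differing by -1.11 between genotypes in hypertonic medium, where its knockout-labelled signal was below the dim limit.

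The subunits of TRiC, the ring-shaped chaperonin that folds actin and tubulin, were read for all 8 genes. All were lower in hypertonic medium in both genotypes, with medians of -0.18 in knockout-labelled and -0.25 in wild-type cells, and none passed 1.5-fold. Of all measured genes, 60.1% were below 0 in knockout-labelled and 53.9% in wild-type cells. The differences of 5 of the 8 in knockout-labelled cells and of 1 in wild-type cells lay within the SD between probe sets. All 7 chaperones of the endoplasmic reticulum and mitochondria were lower as well, with medians of -0.41 in knockout-labelled and -0.38 in wild-type cells, and 1 of the 7 in knockout-labelled and 3 in wild-type cells lay within that SD. Hspa5, the HSP70 of the endoplasmic reticulum, had responses of -0.54 in both genotypes. The cytosolic Hspa8, by its brightest probe set, had -0.12 in knockout-labelled and -0.07 in wild-type cells. Another of its sets gave -0.26 in knockout-labelled cells. These lists were chosen with earlier results known, and no test of a list was made.

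**Figure D5:**
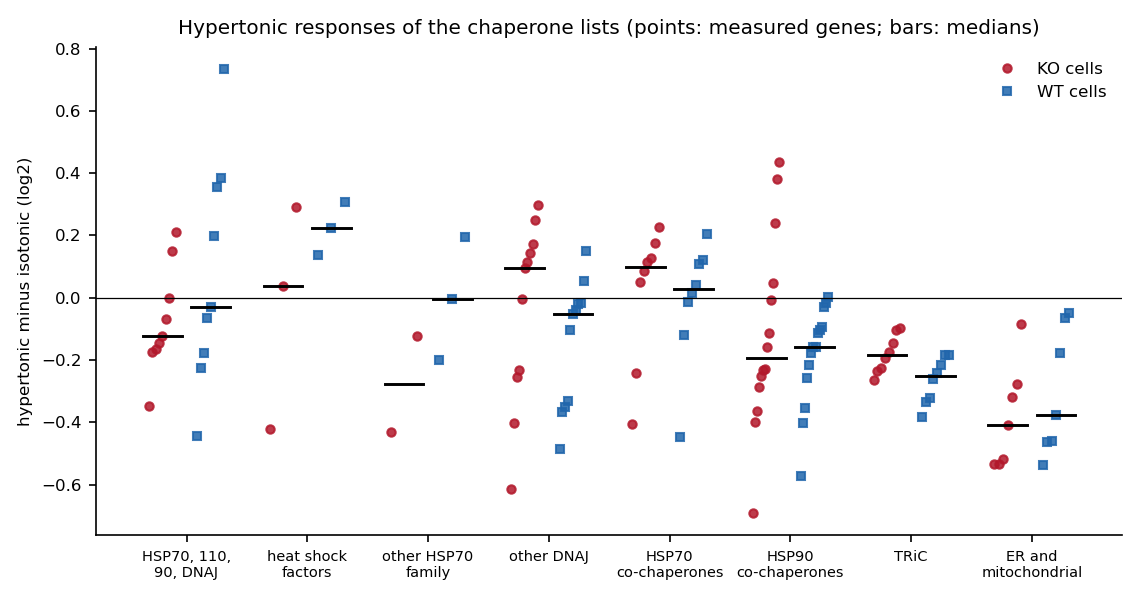
Hypertonic minus isotonic difference (y axis, log2) of the 9 genes described here (left) and of 7 other chaperone lists (x axis), with circles for knockout-labelled (KO) and squares for wild-type (WT) cells; points are genes above the dim limit on an array compared and bars are medians. All TRiC and all endoplasmic reticulum and mitochondrial points lie below 0 in both genotypes, and the 9 genes fall on both sides of it.

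Hspa4l and Hspa1a, whose 4 signals spanned 1.31 and 1.03, were set against 10217 other genes by the distance between profiles centred on the mean of the 4 arrays. Nearest to Hspa4l were Pkd1, Mxra8 and Aff3, at distances of 0.105, 0.140 and 0.142 on the log2 scale. Aff3 was above the dim limit on the wild-type hypertonic array only, so its likeness rests on 3 signals below the limit. Pkd1, which encodes polycystin-1, had responses of -0.40 in knockout-labelled and 0.66 in wild-type cells. Nearest to Hspa1a were Uqcc2, Mettl26 and Mpnd, at 0.020, 0.065 and 0.086. With 4 values a profile, likeness of this kind describes these arrays only.

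Fibroblast markers, summed over the list, put the arrays in the same order as Hspa4l and Hspa1a. Their summed linear signal was 10170 in knockout-labelled hypertonic and 14970 in knockout-labelled isotonic cells, against 20510 in wild-type hypertonic and 18060 in wild-type isotonic cells, over 10 genes. Of the 8 measured markers, 7 were below 0 in the knockout-labelled response and 7 were above 0 in the wild-type response. Among them Vim, highest in knockout-labelled isotonic cells at 12.72, and Thy1, highest in wild-type isotonic cells at 7.34, did not follow the order of the sum. Vim was named after its values were seen. The medians of these 8 between genotypes were -1.56 in hypertonic and -0.47 in isotonic medium. Fewer cells of a type and less RNA per cell cannot be told apart in such pools, and the part of this shift in the Hspa4l and Hspa1a values was not tested. Summed signals of the macrophage list (109.8, 123.7, 118.7 and 110.1) and of the endothelial list (66.1, 45.1, 50.6 and 53.2) are given in the order knockout-labelled hypertonic, knockout-labelled isotonic, wild-type hypertonic and wild-type isotonic. In that order the epithelial list summed to 354.9, 322.5, 312.8 and 340.5, and the neural list to 649.7, 461.0, 423.6 and 527.4. Within the neural list Sox2 was higher in knockout-labelled cells by 3.24 in hypertonic and 2.87 in isotonic medium, and Tubb3 differed by -1.07 in hypertonic and -2.09 in isotonic medium, so the genotypes also differed in these markers in both media, and their part in the chaperone values was not tested.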

How the data were processed

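The authors deposited 1 log2 signal per probe set for each of 4 arrays; that they are log2 is taken from their range, 1.57 to 13.94, and array medians of 4.87 to 4.91. Per the labels' protocols, RNA was primed with poly(T), amplified and hybridised. MAS5 is named, without a version, in the submitters' processing notes, and no source used here describes the background correction or the normalization. Values were used as deposited. The precision of an array value is limited by the number of arrays, 1 per group.

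Of 35557 probe sets, 21789 carried 1 gene symbol in the platform annotation and were used; 1621 with several symbols and 12147 with none were left out of the counts. All 9 genes with a probe set matched the RefSeq symbol by Entrez identifier. A gene counted as measured above the array's 50th percentile of one-gene probe sets on an array compared. Differences are hypertonic minus isotonic, knockout-labelled minus wild type, and the knockout-labelled minus the wild-type response; with 1 array per group no test was made. All list genes were named; for other lists, genes past 2-fold or among the 3 largest differences could be named, and the 3 nearest profiles were taken for genes spanning at least 1. The members and lists were chosen with earlier results of these data known.

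Alternatives were quantile and cyclic loess normalization, centring, the mean of probe sets, other dim limits (none, 75th percentile) and 1.5-fold. The counting step was checked on simulated data. Python 3.11.15, pandas 2.3.3, numpy 2.4.6, matplotlib 3.10.9, R 4.3.3 and limma 3.58.1 were used.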

Additional observations from a re-analysis of the deposited data

Results flagged for a closer look

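The Hspa4l responses had opposite signs in the 2 genotypes, each beyond the SD between probe sets, and differed by -1.08 on the log2 scale (knockout-labelled minus wild type). At least as far from 0 were 37.5% of measured genes in the knockout-labelled response and 4.03% in the wild-type response. With 1 pool per group this difference between genotypes was not tested.

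The probe set annotated to both Hspa1a and Hspa1b, which was outside the counts, was 1.04 higher in hypertonic than in isotonic medium in wild-type cells. The Hspa1a probe set differed by 0.38 between the same arrays, and the 2 sets were not tested against each other.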

How the results depend on the processing

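Among 225 values of single genes under 5 alternatives, 15 had another sign than as deposited, all from differences of at most 0.07 in size. The number of genes past 2-fold between genotypes in hypertonic medium, 2 as deposited, was 1 after quantile normalization and 1 with the dim limit at the 75th percentile. The first of these moved Hspa1a to -0.94, and the second removed Hspa1a because its signals lie below that limit. In the wild-type response the number was 1 at 1.5-fold, where it was 0 at 2-fold. The hypertonic genotype difference of Hspa4l ran from -1.34 to -1.30 over the 5 alternatives, and its wild-type response from 0.73 to 0.78. The value of Dnaja1 between genotypes in hypertonic medium was 0.10 with the mean of its probe sets. Centring on the median of measured genes was chosen after seeing the data; it raised all knockout-labelled responses by 0.09.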
